A study of Mus musculus with 12 samples.

Results

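The mitochondrial chromosome of the mouse encodes 13 proteins, of which 7 belong to complex I. The 6 others are the subject here: mt-Cytb of complex III, mt-Co1, mt-Co2 and mt-Co3 of complex IV, and mt-Atp6 and mt-Atp8 of ATP synthase. They were taken from the deposited count table by gene name, with the mitochondrial chromosome and a protein-coding biotype as conditions, which gave 6 of 54532 listed genes. Each of the 6 passed the filter on low counts that left 13571 genes for testing.

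The libraries came from mouse keratinocytes with the genotype label WT DP-BirA(1-584), meaning that they carry an N-terminal piece of the desmosomal linker desmoplakin fused to the biotin ligase BirA. All 4 groups received 2 µg/mL doxycycline, which switched the fusion protein on, 1.2 micromolar calcium (the concentration and unit as labelled) to start differentiation, and a 16 h biotin pulse. Cells were scratch wounded or left unwounded, cell lysate was separated on sucrose gradients, and neutravidin resin was added to the fractions under translation. The RNA held by the resin is called cortical, and the RNA of the depleted remainder is called total, so that total here means what the resin left behind. Both fractions were sequenced from unwounded and from wounded cells, which made 4 groups of 3 libraries each. The labels number these as biological replicates without saying whether they came from separate dishes or days, so p-values measure the spread between these libraries. In such bulk samples fewer cells of a type and less RNA per cell cannot be told apart.

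Mitochondrial mRNAs are copied from the circular chromosome as long polycistronic transcripts, which are cut at the transfer RNAs that lie between most of the genes. They are read inside the organelle by its own ribosomes, which deliver the membrane-spanning core subunits straight to the inner membrane. Cytochrome b carries electrons through complex III, and the cytochrome c oxidase subunits mt-Co1, mt-Co2 and mt-Co3 form the catalytic core of complex IV. Of the ATP synthase subunits, mt-Atp6 lines the proton path and mt-Atp8 is its small partner subunit. The remaining subunits of these complexes are encoded in the nucleus, made on cytosolic ribosomes and imported. Mitochondrial mRNAs carry short poly(A) tails, so a poly-A selection as used here can recover them.

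The 6 genes lie on the plus strand of the mitochondrial chromosome (MT, mouse build GRCm38, called mm10 in the submitters' processing notes). Their positions are 5328 to 6872 for mt-Co1, 7013 to 7696 for mt-Co2, 7766 to 7969 for mt-Atp8, 7927 to 8607 for mt-Atp6, 8607 to 9390 for mt-Co3 and 14145 to 15288 for mt-Cytb. The genes of 3 members run into each other. mt-Atp8 and mt-Atp6 share 43 bases in different reading frames, and mt-Atp6 and mt-Co3 share 1 base, so that mt-Atp8 has 161 bases of its own. The libraries were not directional, and a read within shared bases belongs to both genes. The following stretches, from the GENCODE M21 transcripts, show the overlaps, with the shared bases in capitals (7912 to 7984 and 8587 to 8627).
mt-Atp8 to mt-Atp6: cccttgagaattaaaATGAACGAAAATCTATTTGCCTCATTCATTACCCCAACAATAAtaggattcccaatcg
mt-Atp6 to mt-Co3: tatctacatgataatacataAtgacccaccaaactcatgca

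The members differ in how far reads can be assigned to them, because a piece of mitochondrial DNA sits in the nuclear genome on the minus strand of chromosome 1. It holds annotated copies of 4 of the 6 members. Gm28661 (chromosome 1, 24614885 to 24615565) was identical to mt-Co2 over 681 of its 684 bases, Gm10925 (24613974 to 24614651) to mt-Atp6 over 678 of 681, and Gm28437 (24613189 to 24613971) to mt-Co3 over 783 of 784. Gm29216 (24615706 to 24616197) covered the last 492 bases of mt-Co1 and matched 486 of them. The 6 differences, counted from 1 at the 5′ end of mt-Co1 with its base first, were T1056A, C1057T, A1059G, A1060G, C1062A and A1066T. No annotated copy in this piece matched mt-Cytb or mt-Atp8. Other parts of the nuclear genome were not searched for copies. The stretch of chromosome 1 between Gm10925 and Gm28661, where mt-Atp8 would lie in the mitochondrial gene order, was not analysed here. The pairs below of mt-Co2, mt-Atp6 and mt-Co3 show why a read from these genes has no unique home. The pair of mt-Co1 differs at the start of its aligned stretch. The first 60 bases of mt-Co2, mt-Atp6 and mt-Co3 and of their copies are given with the start codon in capitals, and the start of the aligned stretch of mt-Co1 (6381 to 6440) is given with the differing bases in capitals.
mt-Co2: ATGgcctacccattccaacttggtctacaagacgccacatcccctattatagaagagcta
Gm28661: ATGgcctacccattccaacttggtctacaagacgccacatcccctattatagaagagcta
mt-Atp6: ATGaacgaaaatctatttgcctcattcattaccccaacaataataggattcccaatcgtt
Gm10925: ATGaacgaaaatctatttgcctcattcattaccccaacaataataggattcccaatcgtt
mt-Co3: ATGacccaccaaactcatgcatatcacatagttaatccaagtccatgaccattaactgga
Gm28437: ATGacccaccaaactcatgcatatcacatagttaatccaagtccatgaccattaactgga
mt-Co1: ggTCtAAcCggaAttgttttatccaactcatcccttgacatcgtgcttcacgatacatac
Gm29216: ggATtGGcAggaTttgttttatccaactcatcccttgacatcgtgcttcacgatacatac

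Stretches of at least 50 identical bases covered 99.6% of mt-Co2 and mt-Atp6, 99.9% of mt-Co3 and 31.0% of mt-Co1. They covered none of mt-Cytb, whose start is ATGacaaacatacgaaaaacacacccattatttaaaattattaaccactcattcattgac (first codon in capitals, 14145 to 14204). How reads that fit several places were counted is not given in the sources used here. Counts listed under mt-Co2, mt-Co3 and mt-Atp6 are therefore uncertain, and each was also analysed as a sum with its copy. For mt-Cytb and most of mt-Co1 no such partner was found among the annotated genes of this piece of chromosome 1.

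Library totals ran from 8980013 to 23457548 counts. Of 7 keratinocyte markers 7 passed the filter. Their summed counts per library total (CPM, here without TMM scaling) were 8904 to 10581 in the total and 15757 to 15886 in the cortical libraries of unwounded cells, and 15329 to 17292 and 20769 to 21430 in those of wounded cells. These sums thus moved with both factors, and their part in the results was not tested. Marker sums of fibroblasts, melanocytes, immune and endothelial cells were at most 6.81 on that scale, with Dcn, Tyr, Tyrp1, Lyz2, Cd207, Csf1r and Cdh5 at 0 in each library. Wounded total replicate 1 stood apart from the other libraries. It had 13117 detected genes, against 14393 to 16867 elsewhere, and its root mean square log2 difference from its nearest library was 1.16, against 0.52 to 0.86 for the other 11. The values of the members, the lists, the spread and the likeness that rest on it are given with and without it where it moves them.

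**Figure D1:**
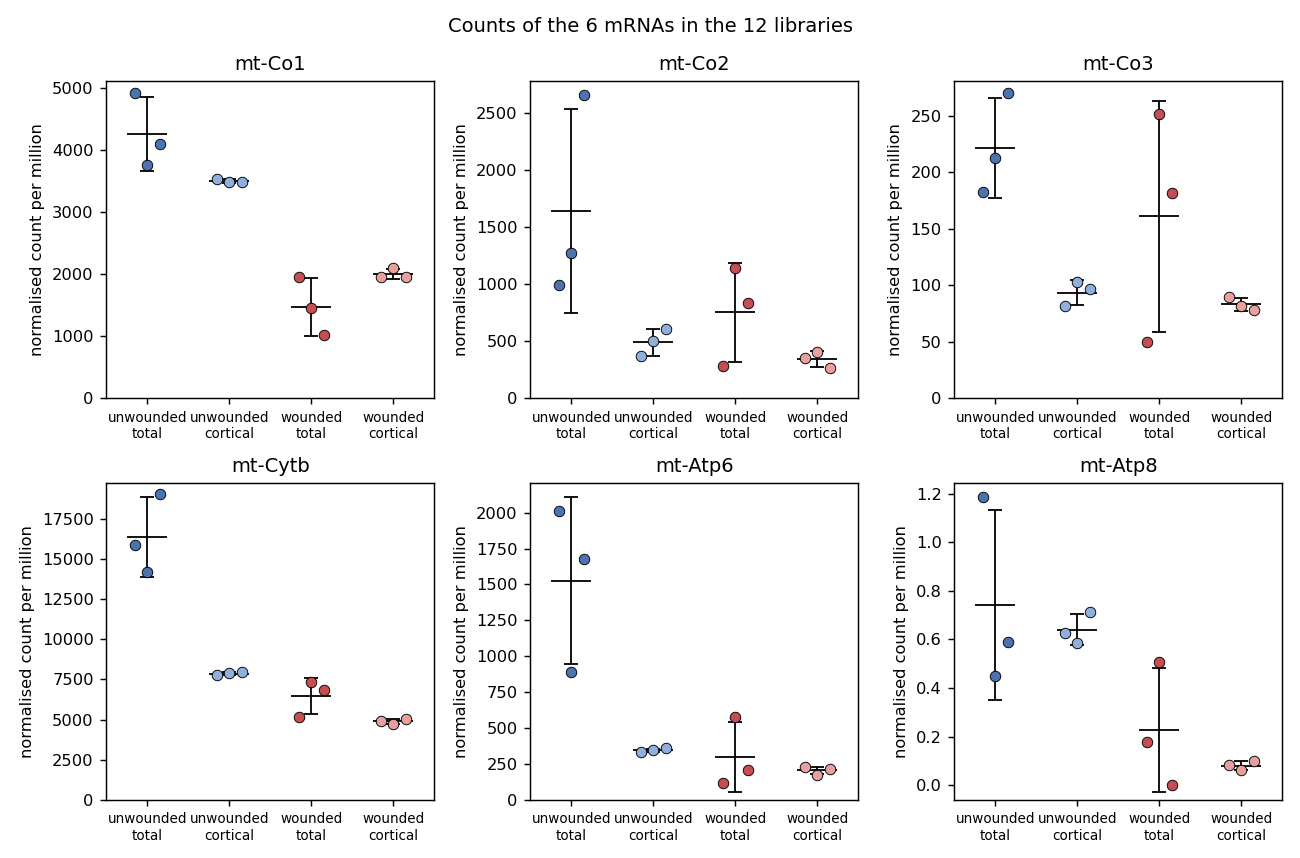
TMM-normalised CPM (y axis, linear, each panel with its own range) of the 6 mRNAs in the 3 libraries of each group; points are replicates 1 to 3 from left to right, and bars are the mean and SD. The cortical libraries lie close together for mt-Co1, mt-Cytb and mt-Atp6, while the total libraries spread widely; wounded total replicate 1 is the highest of its group for mt-Co1 and the lowest for mt-Co2, mt-Co3, mt-Cytb and mt-Atp6.

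mt-Cytb, the electron-carrying core of complex III, had 15903.5, 14179.9 and 19056.2 TMM-normalised CPM in the unwounded total libraries, and 7775, 7895 and 7945 in the unwounded cortical libraries. After wounding it had 5189, 7320 and 6856 CPM in the total libraries and 4909, 4734 and 5014 in the cortical libraries. The 4 groups thus separated without overlap, in the descending order of total and cortical libraries from unwounded cells, then total and cortical libraries from wounded cells, although wounded total replicate 1 fell below the other wounded total libraries and came near the wounded cortical range. How many of all genes separated like this is not given here, nor for the separations of the other members below. The group means were 16380 ± 2473, 7872 ± 87.3, 6455 ± 1121 and 4886 ± 141 CPM (SD, n = 3 each).

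mt-Co1, the heme-bearing subunit of complex IV, had 4909, 3754.5 and 4088 CPM in the unwounded total libraries and 3524, 3476 and 3486 in the unwounded cortical libraries. In the wounded total libraries it had 1944, 1445 and 1017 CPM, and in the wounded cortical libraries 1951, 2094.5 and 1946. The cortical libraries lay below the total libraries in unwounded cells and above them in wounded cells, although the lowest wounded cortical library exceeded wounded total replicate 1 by a small margin.

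mt-Co2, which takes the electrons from cytochrome c, had 988, 1275 and 2659 CPM in the unwounded total libraries and 366, 497 and 602 in the unwounded cortical libraries. It had 282, 1138.5 and 836 CPM in the wounded total libraries and 352, 401 and 262 in the wounded cortical libraries. mt-Co3, a core subunit without a metal centre, had 182, 212 and 269.6 CPM in the unwounded total libraries, 81.2, 102 and 96.4 in the unwounded cortical libraries, 49.6, 251 and 181 in the wounded total libraries and 89.7, 81.1 and 77.9 in the wounded cortical libraries. For both genes the unwounded cortical libraries lay below the unwounded total libraries, and the wounded groups overlapped because wounded total replicate 1 lay within or below the cortical range.

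mt-Atp6, the subunit that lines the proton path of ATP synthase, had 2015, 887 and 1679 CPM in the unwounded total libraries and 331, 343 and 357 in the unwounded cortical libraries. It had 114, 577 and 205 CPM in the wounded total libraries and 226, 174 and 212 in the wounded cortical libraries. The unwounded total libraries stood above the 3 other groups, which came closer to one another. mt-Atp8, its small partner subunit, was close to the detection limit, with raw counts of 27, 8 and 10 in the unwounded total, 16, 7 and 7 in the unwounded cortical, 3, 9 and 0 in the wounded total and 2, 1 and 2 in the wounded cortical libraries. A count of 0 allows up to 3 counts, which is 0.184 CPM in wounded total replicate 3. The wounded levels of mt-Atp8 thus cannot be resolved from these counts. How reads in the 43 bases shared with mt-Atp6 were counted is not given. Their part in the low counts of mt-Atp8 was not tested.

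Levels of different genes were compared per length, with the deposited FPKM. mt-Cytb ranked first in each group, with a mean FPKM of 14072 ± 2210 in the unwounded total, 6859 ± 104 in the unwounded cortical, 5660 ± 978 in the wounded total and 4204 ± 108 in the wounded cortical libraries (SD, n = 3). Its FPKM exceeded that of mt-Co1 by 2.98 to 9.10 times across the 12 libraries, that of mt-Co2 by 3.84 to 12.7 times, that of mt-Atp6 by 4.70 to 27.1 times and that of mt-Co3 by 19.96 to 71.7 times. In the cortical groups the order of FPKM after mt-Cytb was mt-Co1, mt-Co2, mt-Atp6, mt-Co3 and mt-Atp8, with no overlap between neighbours. In the total groups mt-Co1, mt-Co2 and mt-Atp6 overlapped and their order cannot be stated, and in wounded total mt-Co3 overlapped mt-Atp6 too. mt-Atp8 came last in each group. The 3 genes with near-complete nuclear copies are among those whose FPKM the counting of shared reads can lower.

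Together the 6 mRNAs took 2.31% ± 0.434 of the counts of the unwounded total libraries, 1.34% ± 0.0252 of the unwounded cortical, 0.819% ± 0.0767 of the wounded total and 0.791% ± 0.0062 of the wounded cortical libraries (SD, n = 3). mt-Cytb alone made up 64.0% to 70.7% of this share as a group mean. Of the counts of the 13 mitochondrial protein genes the 6 held 31.0% ± 1.22 and 34.8% ± 0.0907 in the unwounded total and cortical libraries, and 27.0% ± 3.75 and 32.4% ± 0.737 in the wounded ones.

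The cortical replicates lay closer together than the total replicates for each of the 6 members, in unwounded and in wounded cells. In unwounded cortical libraries the coefficient of variation was 0.731% for mt-Co1, 1.11% for mt-Cytb and 3.85% for mt-Atp6, while in unwounded total libraries it was 14.0%, 15.1% and 37.9%. Over all tested genes the median coefficient was 15.1% in the unwounded cortical and 12.8% in the unwounded total group. In wounded cells mt-Co1, mt-Cytb and mt-Atp6 varied by 4.24%, 2.89% and 13.1% among cortical and by 31.6%, 17.4% and 82.2% among total libraries, where the median over all genes was 14.9% and 21.8%. From the 2 wounded total libraries other than replicate 1 these values were 24.6%, 4.63% and 67.3%, and the median was 9.75%, so that the spread of mt-Cytb in that group rested on 1 library. The complex I mRNAs other than mt-Nd4l also spread less, relative to their means, among cortical than among total libraries of either treatment. In unwounded cells mt-Nd2 had 9149 ± 160 CPM in cortical and 22617 ± 4511 in total libraries (SD). These are descriptions of 3 libraries each and were not tested.

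The first comparison asks which of these mRNAs were more or less abundant in the RNA held by the resin than in the depleted remainder. Where in the cell these mRNAs lay was not tested. In unwounded cells 4 of the 6 fell in the cortical fraction: mt-Cytb, mt-Co2, mt-Co3 and mt-Atp6. mt-Atp6 stood at 0.225 of its level in total, mt-Co2 at 0.298, mt-Co3 at 0.421 and mt-Cytb at 0.481. mt-Co1 stood at 0.822 and did not pass the test, and neither did mt-Atp8. Across all 13571 genes 7.59% were called lower and 6.62% higher in this comparison, and none of the 6 was called higher.

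The log2 fold changes, with edgeR's quasi-likelihood test and Benjamini-Hochberg adjustment over all genes tested, were -1.06 ± 0.13 (SE) for mt-Cytb (adjusted p = 1.21e-04), -2.15 ± 0.41 for mt-Atp6 (adjusted p = 0.00236), -1.75 ± 0.40 for mt-Co2 (adjusted p = 0.00731) and -1.25 ± 0.35 for mt-Co3 (adjusted p = 0.0233). They were -0.28 ± 0.17 for mt-Co1 (edgeR adjusted p = 0.325) and -0.22 ± 1.07 for mt-Atp8 (edgeR adjusted p = 0.944). Summed with their copies, mt-Atp6, mt-Co2 and mt-Co3 kept their calls, at -2.11, -1.65 and -1.49. The call of mt-Co3 was lost without unwounded total replicate 2 or 3 or without any 1 of the unwounded cortical replicates 1, 2 and 3 (log2 fold changes -1.32 to -1.08, edgeR adjusted p 0.0601 to 0.0974), with DESeq2 (-1.23, adjusted p = 0.0555) and with limma on log2(FPKM + 1) or log2(FPKM + 0.1) (adjusted p = 0.105 and 0.108). mt-Co1 passed without wounded total replicate 1 (-0.28, edgeR adjusted p = 0.0471) and with voom quality weights (-0.36, adjusted p = 0.0127).

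**Figure D2:**
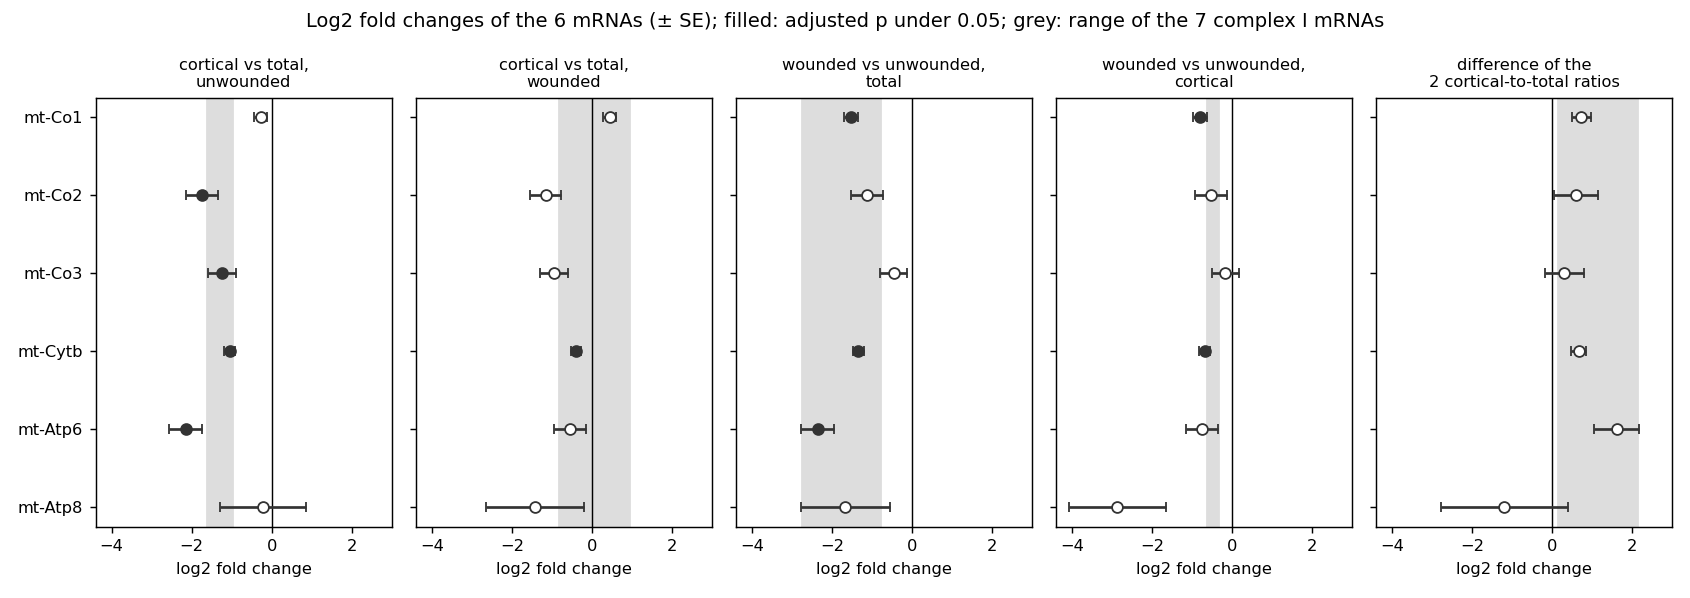
Log2 fold change (x axis) of the 6 mRNAs (y axis) in the 4 comparisons and the difference of the cortical-to-total ratios between wounded and unwounded cells; bars are SE, filled points passed an adjusted p of 0.05 in edgeR, and grey bands span the 7 complex I mRNAs. mt-Co1 lies to the right of the band in unwounded cells and above 0 in wounded cells, where mt-Cytb is the one filled point.

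In wounded cells the same comparison had 1 call. mt-Cytb stood at 0.757 of its level in total (log2 -0.40 ± 0.13, SE; edgeR adjusted p = 0.044). mt-Co1 was 1.36 times its level in total, with each cortical library above each total library, but missed the threshold (log2 0.44 ± 0.17, edgeR adjusted p = 0.0884). Without wounded total replicate 3 it was 0.23 (edgeR adjusted p = 0.301). The other log2 fold changes were -1.15 for mt-Co2, -0.96 for mt-Co3, -0.55 for mt-Atp6 and -1.42 for mt-Atp8, with edgeR adjusted p from 0.0564 to 0.493. Over all genes 8.03% were called lower and 7.62% higher here.

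This comparison rested on wounded total replicate 1. Without it, mt-Cytb (-0.54), mt-Co2 (-1.55), mt-Co3 (-1.39) and mt-Atp6 (-0.94) were called lower and mt-Co1 (0.70) higher in the cortical fraction (edgeR adjusted p 9.36e-08 to 0.0114). Calls over all genes rose as well, to 12.6% lower and 12.1% higher. Without wounded total replicate 2, mt-Atp6 turned to 0.36 and nothing was called. The call of mt-Cytb was kept in 11 of 24 alternatives: it was lost without unwounded total replicate 1 and without each of the unwounded cortical, wounded cortical and remaining wounded total libraries in turn (-0.42 to -0.30, edgeR adjusted p 0.054 to 0.18), and mt-Co2 was called without unwounded total replicate 1 (-1.15, edgeR adjusted p = 0.0473) or 3 (-1.15, edgeR adjusted p = 0.0371). Scaling by library size alone raised the median of all genes by 0.21 and that of the unwounded comparison by 0.19. No member changed direction under another scaling. By library size alone mt-Cytb was at -0.17 (edgeR adjusted p = 0.248) and mt-Co1 was called higher at 0.62 (edgeR adjusted p = 0.044) in wounded cells.

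The next comparison asks how wounding changed the mRNAs within the total fraction. mt-Atp6 fell to 0.195 of its unwounded level, mt-Co1 to 0.346 and mt-Cytb to 0.394. mt-Co2 stood at 0.459 and mt-Co3 at 0.727 without passing the test, and neither did mt-Atp8. Of all genes 7.2% were called lower and 8.39% higher. For mt-Atp6, mt-Co1 and mt-Cytb each wounded library lay below each unwounded one, and the share of all genes that did so is not given here.

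The log2 fold changes were -1.34 ± 0.13 (SE) for mt-Cytb (edgeR adjusted p = 8.35e-06), -1.53 ± 0.17 for mt-Co1 (2.97e-05) and -2.36 ± 0.41 for mt-Atp6 (0.00105). They were -1.12 ± 0.39 for mt-Co2 (edgeR adjusted p = 0.0614), -0.46 ± 0.34 for mt-Co3 (0.415) and -1.67 ± 1.12 for mt-Atp8 (0.357). Without wounded total replicate 1 the value for mt-Co3 was -0.03 and that for mt-Co2 was -0.73 (edgeR adjusted p = 0.0442). The value of mt-Co2 depended on which total library was left out: it was -1.40 without unwounded total replicate 1 (edgeR adjusted p = 0.04), -1.56 without wounded total replicate 2 (edgeR adjusted p = 0.0224) and -0.59 without unwounded total replicate 3 (edgeR adjusted p = 0.373). With voom quality weights it was -0.35 (adjusted p = 0.254). mt-Atp6 reached -3.27 without wounded total replicate 2 (edgeR adjusted p = 6.44e-06). The calls of mt-Cytb, mt-Co1 and mt-Atp6 were kept in 24 of 24 alternatives.

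Within the cortical fraction wounding lowered mt-Co1 to 0.571 and mt-Cytb to 0.621 of the unwounded level. The log2 fold changes were -0.81 ± 0.17 (SE; edgeR adjusted p = 0.0175) and -0.69 ± 0.13 (edgeR adjusted p = 0.00937). These 2 of 6 stood beside 0.884% called lower and 1.6% called higher over all genes. mt-Atp6 was at 0.594, mt-Co2 at 0.693 and mt-Co3 at 0.89 of the unwounded level and did not pass the test (edgeR adjusted p 0.346 to 0.865). mt-Atp8 had a fitted log2 change of -2.87 ± 1.22 (SE; edgeR adjusted p = 0.231), from raw counts of at most 2 in the wounded libraries. Each wounded cortical library lay below each unwounded one for mt-Co1, mt-Cytb and mt-Atp6, and for mt-Atp8 at these low counts. The share of all genes that separated in this way is not given here. The sizes hardly moved when libraries were left out, but the calls did: that of mt-Co1 was lost without any 1 of the 6 cortical libraries (-0.84 to -0.79, edgeR adjusted p 0.0679 to 0.0824), and that of mt-Cytb without unwounded cortical replicate 2 or 3 or wounded cortical replicate 1 or 2 (-0.69 to -0.67, edgeR adjusted p 0.0507 to 0.0653).

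Whether the cortical-to-total ratio itself differed between wounded and unwounded cells was tested as an interaction. The log2 difference of the ratios was 0.73 ± 0.24 (SE) for mt-Co1, 0.66 ± 0.18 for mt-Cytb and 1.60 ± 0.56 for mt-Atp6, and 0.60, 0.29 and -1.20 for mt-Co2, mt-Co3 and mt-Atp8. None of the 6 passed edgeR's test after adjustment (adjusted p 0.285 to 0.915), and 3 had an unadjusted p under 0.05: mt-Cytb (0.00231), mt-Co1 (0.00762) and mt-Atp6 (0.0107). DESeq2 and limma on log2 FPKM called 0 too, and voom with quality weights called 2. Over all genes 0.0221% were called higher and 0.103% lower. Without wounded total replicate 1, mt-Co1 (0.98, edgeR adjusted p = 0.00106) and mt-Cytb (0.52, edgeR adjusted p = 0.0186) were called. Calls over all genes then rose to 1.06% higher and 1.88% lower. Without wounded total replicate 3 mt-Co1 was at 0.50 (edgeR adjusted p = 0.456). Without wounded total replicate 2 mt-Atp6 was called (2.49, edgeR adjusted p = 0.00583). The 4 comparisons share groups, so their values are not independent of each other.

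**Figure D3:**
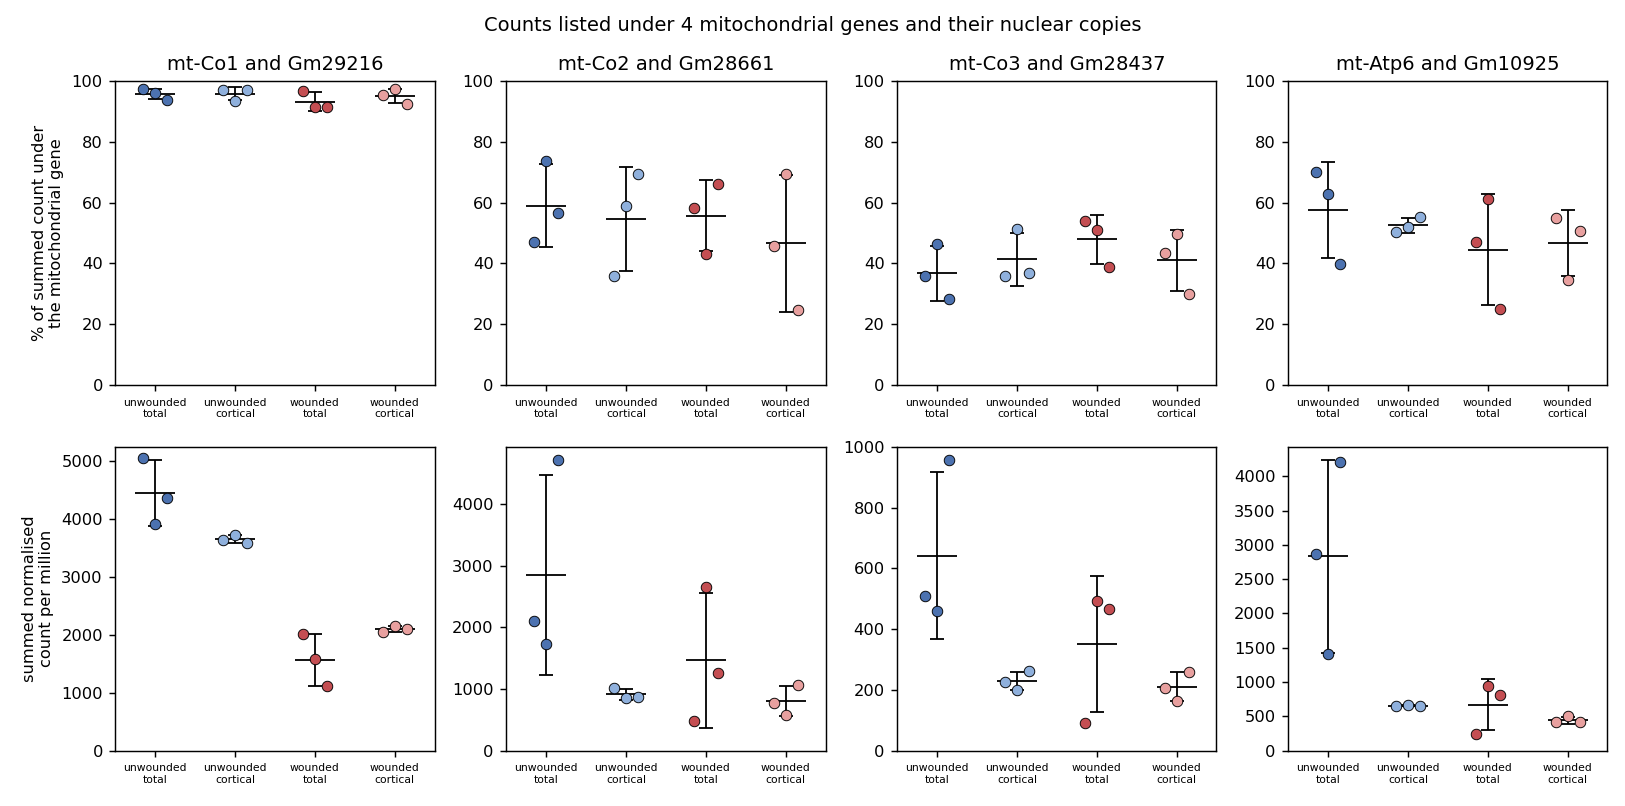
Upper row: percent of the summed count of a mitochondrial gene and its chromosome 1 copy that was listed under the mitochondrial gene (y axis, 0 to 100) in each library; lower row: the summed CPM (y axis, linear, own range per panel). Points are replicates 1 to 3, bars the mean and SD; the percent stays above 90 for mt-Co1 and moves between 24.6 and 73.7 for the 3 genes with near-complete copies.

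The division of counts between members and copies varied from library to library. The percent listed under the mitochondrial gene ran from 24.6 to 73.7 for mt-Co2 (median 57.3), from 25.1 to 70.2 for mt-Atp6 (median 51.3) and from 28.2 to 53.9 for mt-Co3 (median 41.2), over 12 libraries. The nuclear copy had the higher count in 5 of 12 libraries for mt-Co2, in 4 for mt-Atp6 and in 9 for mt-Co3, although the sequences printed above are identical. For mt-Co1, whose copy covers its 3′ end alone, the percent was 91.4 to 97.3.

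The split had no common direction among the replicates. In the wounded cortical libraries mt-Co2 held 45.8%, 69.5% and 24.6% of its sum, and mt-Atp6 55.0%, 34.5% and 50.5%. Summing gave mt-Atp6 an even narrower range in unwounded cortical libraries, at 658, 659 and 647 CPM, against 2869.6, 1411.6 and 4214.7 in unwounded total libraries. The copies themselves gave edgeR log2 fold changes between unwounded cortical and total of -2.07 for Gm10925 (adjusted p = 0.0104), -1.63 for Gm28437 (adjusted p = 0.0358), -1.51 for Gm28661 (adjusted p = 0.133) and -0.29 for Gm29216 (adjusted p = 0.71). With the sums, the members called in the 4 comparisons numbered 4, 1, 3 and 2, and the share of counts of the 6 was 2.62% and 1.46% in the total and cortical libraries of unwounded cells and 0.937% and 0.889% in those of wounded cells.

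**Figure D4:**
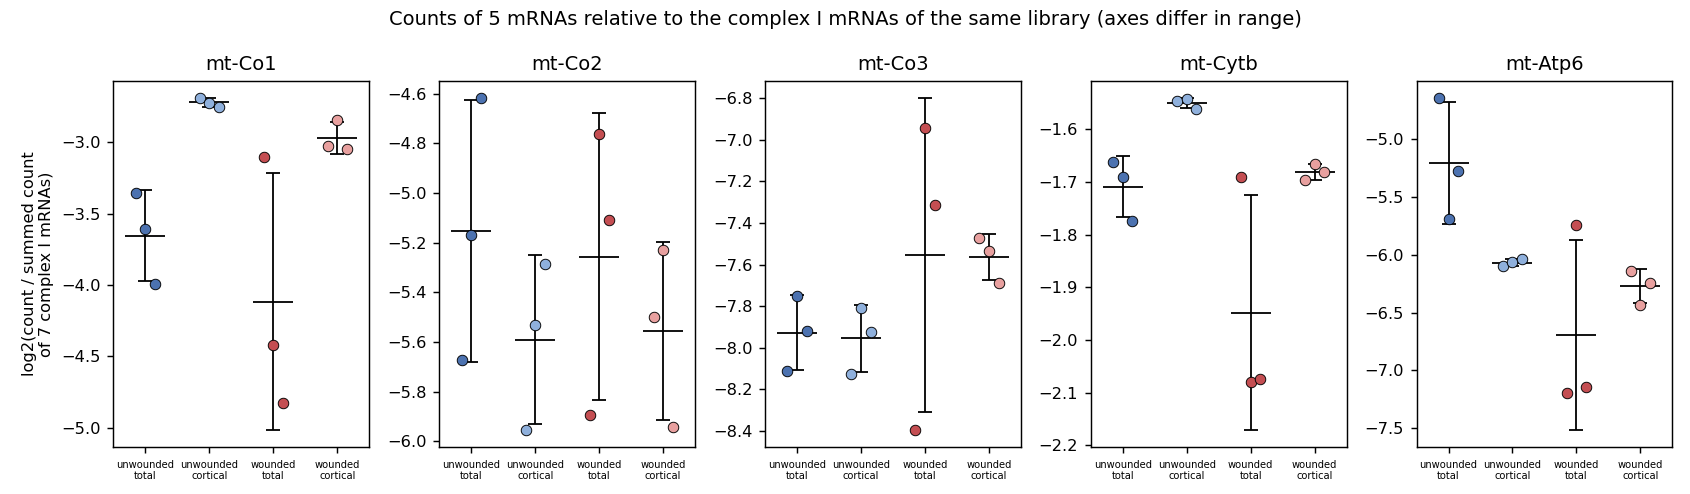
Log2 of the count of each mRNA over the summed count of the 7 complex I mRNAs of the same library (y axis, own range per panel) for 5 of the 6 mRNAs; mt-Atp8 is left out since 1 library has a count of 0. Points are replicates 1 to 3, bars the mean and SD; for mt-Co1 each cortical library lies above each total library of the same treatment.

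A ratio within the mitochondrial transcripts shows how the members moved against each other, free of the scaling of whole libraries. mt-Co1 amounted to 9.74%, 8.20% and 6.27% of the summed complex I counts in the unwounded total libraries and to 15.5%, 15.1% and 14.9% in the unwounded cortical libraries. In the wounded total libraries it amounted to 11.6%, 4.67% and 3.52%, and in the wounded cortical libraries to 12.3%, 13.9% and 12.1%. Wounded total replicate 1 was again near the cortical values. Averaged over both treatments, mt-Co1 was 1.04 higher on the log2 scale in the cortical than in the total libraries (0.93 in unwounded, 1.15 in wounded cells). A two-sided exact permutation test over the 400 arrangements of fraction labels within treatment gave p = 0.005, the smallest it can give. The test took the libraries as unpaired, although a cortical and a total library can come from the same lysate. Without wounded total replicate 1 the difference was 1.29.

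mt-Cytb made up 31.6%, 31.0% and 29.2% of the complex I sum in unwounded total and 34.2%, 34.4% and 33.9% in unwounded cortical libraries. In wounded cells it made up 31.0%, 23.7% and 23.8% in total and 30.8%, 31.5% and 31.2% in cortical libraries. Its log2 difference between fractions was 0.21 (exact permutation p = 0.01), and 0.28 without wounded total replicate 1. The groups of wounded cells overlapped through that library alone.

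Averaged over both treatments, the log2 difference of the other members was -0.37 for mt-Co2 (exact permutation p = 0.165), -0.02 for mt-Co3 (exact permutation p = 0.925) and -0.22 for mt-Atp6 (exact permutation p = 0.515). mt-Atp6 differed in opposite directions in the treatments, by -0.86 in unwounded and 0.42 in wounded cells. Its log2 ratio was -5.69 to -4.64 in the unwounded total and -6.10 to -6.04 in the unwounded cortical libraries, which did not overlap. These 5 p-values are unadjusted, and a Benjamini-Hochberg value is not given since the members were chosen with earlier results known. The mt-Nd sum includes mt-Nd3, mt-Nd4 and mt-Nd4l, which have copies in the same stretch of chromosome 1. A ratio shows unequal change and does not say which of its parts moved.

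**Figure D5:**
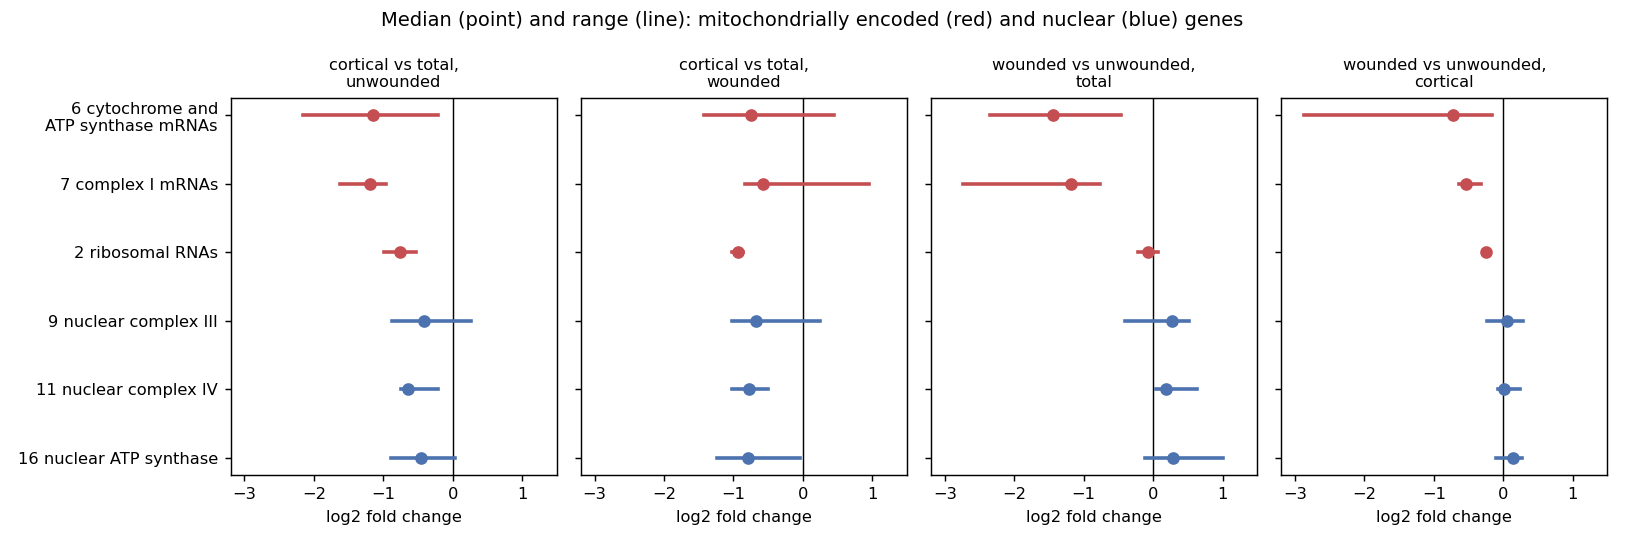
Median (point) and range (line) of the log2 fold changes (x axis) of the 6 mRNAs and of related gene lists (y axis) in the 4 comparisons; red marks mitochondrially and blue nuclear encoded genes. In both cortical comparisons the medians of the 6 lists lie below 0, while in wounded against unwounded total the nuclear medians are above 0 and those of the mitochondrial mRNAs below.

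The 7 complex I mRNAs of the same chromosome, the mt-Nd genes, were called lower in 6 of 7 cases in unwounded cortical against total and in 5 of 7 in wounded cells, with medians of -1.19 and -0.58. In wounded against unwounded cells 7 of 7 were lower in total (median -1.19) and 1 of 7, mt-Nd4, in cortical (median -0.53). Of all genes 7.59% and 8.03% were called lower in unwounded and wounded cortical against total. For wounding in total and cortical the shares called lower were 7.2% and 0.884%. The medians of the 6 members were -1.15, -0.75, -1.44 and -0.72 in the same order, and those of all genes lay between -0.03 and 0.04. In unwounded cortical against total mt-Co1 and mt-Atp8 lay above the mt-Nd range of -1.62 to -0.96, mt-Co2 and mt-Atp6 lay below it, and mt-Cytb and mt-Co3 lay within it. In the interaction 1 of the 7 passed edgeR's test: mt-Nd5, a complex I subunit, with 1.07 ± 0.16 (SE, adjusted p = 0.0117). Over all genes 0.0221% were called higher in the interaction. Of the ribosomal RNAs, mt-Rnr1 was called lower in cortical in unwounded (-0.99, edgeR adjusted p = 0.0245) and wounded cells (-1.02, edgeR adjusted p = 0.0204), while mt-Rnr2 was at -0.53 and -0.86 without passing, and edgeR and DESeq2 called neither for wounding, with 0 at an unadjusted p under 0.05. Leaving out wounded total replicate 1 raised the mt-Nd calls for wounding in cortical from 1 to 5 and those in the interaction from 1 to 3. It also raised the ribosomal RNAs called lower in each cortical comparison from 1 to 2, and 1 of them was then called higher with wounding in total. Over all genes that fit called 3.6% lower for wounding in cortical and 1.06% higher in the interaction. It called 12.3% and 12.6% lower in the unwounded and wounded cortical comparisons, and 13.4% higher with wounding in total.

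Some of the nuclear subunits of the same 3 complexes fell in the cortical fraction, where 7.59% of all genes were called lower in unwounded and 8.03% in wounded cells. Of 9 complex III genes 4 were called lower in unwounded and 5 in wounded cells, led by Uqcrb (-0.87 and -0.87) and Uqcrq (-0.66 and -1.03), small subunits that surround cytochrome b, and by Uqcr11 in wounded cells (-0.92). Of 11 complex IV genes 7 and 11 were called lower, with Cox5b (-0.75 and -1.03) and Cox5a (-0.74 and -0.67), the matrix-side subunits, and Cox6c (-1.02 in wounded cells) as examples. Of 16 ATP synthase genes 6 and 12 were called lower, among them the membrane-ring subunit gene Atp5g3 (-0.90 and -0.82) and the stalk subunit genes Atp5o (-0.88 and -0.79) and Atp5j (-0.74 and -0.99), and in wounded cells the membrane subunit gene Atp5k (-1.23). The medians of the 3 lists were -0.42, -0.64 and -0.46 in unwounded and -0.68, -0.78 and -0.80 in wounded cells, and none of their genes was called higher. The highest values in unwounded cells were 0.27 in complex III and 0.03 in ATP synthase. When wounded total replicate 1 was left out, 6 of 9, 10 of 11 and 10 of 16 were called lower in unwounded and 5, 11 and 12 in wounded cells, beside 12.3% and 12.6% of all genes, and 1 complex III gene was called higher in each.

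With wounding the nuclear and mitochondrial genes of these complexes had medians of opposite sign in the total fraction. The nuclear medians were 0.27 for complex III, 0.19 for complex IV and 0.29 for ATP synthase. Called higher were 0 of 9, 1 of 11 (Cox6c, 0.62, edgeR adjusted p = 0.0173) and 4 of 16 (led by Atp5k, 1.01, and Atp5h, 0.62), and called lower was 1, the Rieske iron-sulfur protein gene Uqcrfs1 (-0.41, edgeR adjusted p = 0.0356). Beside them stood 8.39% of all genes called higher and 7.2% called lower for wounding in total. For wounding in cortical these shares were 1.6% and 0.884%. In the cortical fraction edgeR and DESeq2 called 0 genes of each list for wounding, with 1 of 9, 0 of 11 and 1 of 16 at an unadjusted edgeR p under 0.05, and the medians were 0.06, 0.02 and 0.14. With that library left out, 5 of 9, 7 of 11 and 12 of 16 were called higher in the total fraction, beside 13.4% of all genes, with medians of 0.36, 0.40 and 0.40, and 1 complex III gene was called higher in the cortical fraction. The difference between the nuclear and the mitochondrial genes was not tested.

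Genes that make, process and hold mitochondrial RNA were called in small numbers. Of 21 such genes 2 were called higher and 2 lower in unwounded cortical against total, and 2 and 1 in wounded cells, against 6.62% higher and 7.59% lower, and 7.62% and 8.03%, of all genes. The genes named here are single genes and no result about the list. Lrpprc, whose protein stabilises mitochondrial mRNAs, was higher in the cortical fraction of unwounded (0.80, edgeR adjusted p = 0.0161) and wounded cells (0.68, edgeR adjusted p = 0.0364). Fastkd2, whose protein binds mitochondrial RNA, was higher in unwounded cells (0.83, edgeR adjusted p = 0.0168), and the oligoribonuclease gene Rexo2 was lower in both (-0.69 and -0.65). With wounding, Fastkd1 (-0.65) and the mitochondrial poly(A) polymerase gene Mtpap (-0.44) fell in the total fraction. Without wounded total replicate 1 Mtpap lost its call (-0.36, edgeR adjusted p = 0.0807), and the number called lower rose from 2 to 5. That fit called 11.5% of all genes lower, against 7.2% with every library. In the cortical fraction edgeR called 0 for wounding, with 4 at an unadjusted p under 0.05, and DESeq2 called 1. The list medians were 0.04 and 0.16 in the cortical comparisons and -0.26 and -0.12 for wounding in total and cortical.

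Of 30 translation activators and assembly factors of complexes III, IV and V, 28 could be tested. Called higher and lower were 1 and 2 in unwounded cortical against total, 1 and 5 in wounded cells, 1 and 5 for wounding in total (beside 8.39% and 7.2% of all genes) and 0 and 0 for wounding in cortical, where 3 had an unadjusted edgeR p under 0.05 and DESeq2 called 3. In the unwounded comparison these counts lay at or below the share of all genes. Leaving out wounded total replicate 1 made them 2 and 7, 0 and 8, and 5 and 6 in the first 3 comparisons. Over all genes that fit called 10.1% and 12.3%, 12.1% and 12.6%, and 13.4% and 11.5% higher and lower. Coa7 (-0.85) and Cox14 (-0.67) led in unwounded cells, and Pet100 (-1.29) and Cox14 (-0.91) in wounded cells, all of them complex IV assembly factors. Cox17 (-0.87), a copper chaperone for complex IV, and Lyrm7 (-0.78), an assembly factor of complex III, were the largest changes with wounding in total.

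Among 11489 nuclear protein-coding genes, those whose profile over the 12 libraries came nearest to the mean profile of the 6 members were Tnfrsf18, Cep41, Rrp15, Phlda2 and Abhd14a. Their root mean square differences from it, on centred log2 CPM, were 0.39, 0.40, 0.41, 0.42 and 0.42, where the mean profile itself varied with an SD of 0.77. Among the mitochondrial genes mt-Cytb lay nearest to that mean (0.22), and the other members lay 0.51 to 0.65 away. The complex I mRNAs other than mt-Nd4l lay 0.25 to 0.35 away, nearer than those 5 members and than the named nuclear genes. The members themselves enter that mean. Over the 11 libraries other than wounded total replicate 1 the nearest nuclear genes were Srsf7, Sumo2, 3110082I17Rik, Hnrnpab and Rrp15 (0.34 to 0.37), so that Rrp15 alone was named by both, and mt-Cytb lay at 0.20. The complex I mRNAs other than mt-Nd4l then lay 0.23 to 0.36 away, and mt-Nd1 (0.357) lay farther than Srsf7 (0.336). Dek came nearest to mt-Co1 alone (0.15, and 0.16 without that library), with 19.7, 19.0, 7.74 and 11.4 CPM as the means of the total and cortical libraries of unwounded cells and the total and cortical libraries of wounded cells. These are descriptions over libraries that share groups and carry no test.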

How the data were processed

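Poly-A RNA of 12 libraries was read as the authors' deposited gene counts (raw, per gene) and deposited FPKM (scaled by gene length and library depth). CASAVA, HISAT2 and the build mm10 come from the submitters' processing notes, the non-directional library from the labels' protocols, and the counting tool and annotation are not given in the sources used here. Counts were filtered with filterByExpr (at least 10 counts) and scaled by TMM, and 1 fit with a mean per group in edgeR 4.0.16 (quasi-likelihood F test, two-sided) gave 5 contrasts, with Benjamini-Hochberg adjustment over 13571 genes and a threshold of 0.05. CPM of genes were TMM-scaled. DESeq2 1.42.0, limma 3.58.1 (log2 FPKM plus 1 or 0.1, and voom), other scalings and filters, sums with nuclear copies, a replicate block and left-out libraries were alternatives. Ratios to the mt-Nd sum were tested by exact permutation. Copies were aligned without gaps to GENCODE M21 transcripts. The edgeR steps were tested on simulated data. All 6 members were named; from each list, called genes with the largest absolute log2 fold change were named, up to 2 per comparison, and list genes also by their value in the other comparison. mt-Nd1, mt-Nd2, mt-Nd3, mt-Nd4, mt-Nd4l and mt-Nd5 were named after their values were seen, and so were mt-Rnr2, Cox6b1, Cox7c and Cyc1. The 5 nearest genes followed from the likeness measure. Members and lists were chosen with earlier results of these data known. Keratinocyte and other cell type markers were checked as summed counts per library total. The fits of the lists, the spread and the likeness without wounded total replicate 1 were chosen after seeing the data. No deposited column was left unused among the per-sample values.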

Additional observations from a re-analysis of the deposited data

Results flagged for a closer look

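The cortical-to-total comparison of mt-Co1 had opposite signs in the 2 treatments. Each unwounded cortical library lay below each unwounded total library, and each wounded cortical library lay above each wounded total library. How many of all genes separated in this way is not given here. The log2 ratio differed by 0.73 between wounded and unwounded cells (edgeR adjusted p = 0.357), so the difference itself did not pass the test over all genes. It was 0.98 without wounded total replicate 1 (edgeR adjusted p = 0.00106) and 0.50 without wounded total replicate 3 (edgeR adjusted p = 0.456), where the wounded ratio was 0.23. The highest wounded total library, replicate 1, and the lowest wounded cortical library had 1944 and 1946 CPM. The change of sign was not particular to mt-Co1. In unwounded and wounded cells mt-Nd3 was at -1.13 and 0.27, and mt-Nd4l at -1.19 and 0.95. Neither passed in wounded cells (edgeR adjusted p = 0.51 and 0.231). Interaction values of the 7 mt-Nd mRNAs ran from 0.13 to 2.145 (median 0.86).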

How the results depend on the processing

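Of 707 values of the members under alternatives, 627 kept direction and side of the threshold, 36 lost and 37 gained a call and 7 turned. The members called moved beyond 1.5 times as follows. In unwounded cortical against total, 4 became 2 with limma on log2(FPKM + 0.1). In wounded cells, 1 became 5 with no filter on low counts or with voom quality weights. It became 2 with a mean of at least 50 counts, and 0 with FPKM plus 1, FPKM plus 0.1 or only the groups compared. Leaving out libraries gave 0 to 5, with 5 without wounded total replicate 1. That fit called 12.1% of all genes higher and 12.6% lower, against 7.62% and 8.03% with every library. For the other alternatives the share of all genes called is not given here. For wounding in total, 3 became 5 with no filter. For wounding in cortical, 2 became 4 with no filter or only the groups compared and 0 with either FPKM setting, and leaving out libraries gave 0 to 2. For the interaction, 0 became 3 with no filter and 2 with voom, and leaving out libraries gave 0 to 2. With no filter the SE hardly differed between the members other than mt-Atp8. In wounded cortical against total it was 0.123 to 0.127, against 0.129 to 0.393 in the main fit. Calls gained with no filter rest on that smaller spread. No interaction fit on only the groups compared exists, since it uses every group. Turned values were 0.11 for mt-Co3 in wounding, total (voom) and -0.21 for mt-Co2 and -0.25 for mt-Co3 in the interaction (voom). With libraries left out, the interaction ran from -0.13 to 0.75 for mt-Co3 and from -1.78 to 0.066 for mt-Atp8, unwounded cortical against total from -0.46 to 0.32 for mt-Atp8, and wounded cortical against total from -0.94 to 0.36 for mt-Atp6. Relative to complex I, mt-Co3 was 0.010 with copies and -0.23 to 0.13 with libraries left out, and mt-Atp6 -0.35 to 0.017. Shares with copies became 1.46% in unwounded cortical, 0.937% in wounded total and 0.889% in wounded cortical libraries. The causes were not tested. A lone excluded library leaves 2 in its group, and mt-Atp8 dropped out of fits that filtered it.

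Same-numbered libraries deviated together with r from -0.03 to 0.22, and only 2 of 12 correlations exceeded 0.1, so the numbers were not taken as pairs. With the replicate block the members called were 4, 1, 4, 2 and 0; mt-Co2 gained a call for wounding in total (-1.18, edgeR adjusted p = 0.0266).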
